A study of Mus musculus with 13 samples.

Results

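The mitochondrial genome genes are the genes that the mitochondrial chromosome carries. They were chosen by name, as every gene whose mouse symbol starts with mt-, and were 37 of the 55536 genes in the poly(A) RNA-seq files: 13 mRNAs, 2 rRNAs and 22 tRNAs. All 37 matched RefSeq entries on chromosome MT, with the same annotated lengths (RefSeq, GRCm38.p6, which is mm10).

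The mitochondrial genome is a small circle that is transcribed from both strands into long precursors. The tRNAs lie between most of the other genes, and cutting them out releases the mRNAs and rRNAs, most of which then receive short poly(A) tails. The mRNAs encode core subunits of respiratory complexes I, III and IV and of ATP synthase, and the rRNAs and tRNAs serve the ribosome that translates them inside the organelle. Every other protein of mitochondria is encoded in the nucleus. Mature neutrophils rely largely on glycolysis, and their mitochondria are known for a part in cell death and migration. The nuclear genome also carries copies of stretches of mitochondrial DNA, some of them nearly identical to it.

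Neutrophils freshly isolated from the bone marrow of wild-type mice were held in HBSS, a balanced salt solution. One group is labelled mock (n = 2 libraries), and the other had RNase A added outside the cells (the exRNaseA group, n = 2). Both groups carry one protocol, RNase A at 37 °C and for 10 min, with no separate account of the mock step, so the groups rest on the sample titles and the treatment field. The design text calls the libraries biological replicates but does not say that they came from separate animals, so p-values measure the spread between these libraries. Small RNA was sequenced from 9 further groups with 1 library each. These were HOXB8 cells, a myeloid progenitor line kept undifferentiated by estradiol and grown with SCF, as gel-purified input, biotin capture and WGA capture. The same 3 libraries and a biotin capture digested with PNGase F came from HOXB8 cells differentiated without estradiol. Primary wild-type neutrophils gave an input and a WGA capture. Biotin capture takes RNA whose sialic acid was labelled through the sugar Ac4ManNAz, WGA (wheat germ agglutinin) is a lectin that binds sialic acid and N-acetylglucosamine, and PNGase F cuts N-glycans from proteins.

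The 4 poly(A) libraries held between 20661683 and 23722494 expected counts, the reads that the RSEM program assigns to a gene, split as fractions where a read matches several genes. The 12 neutrophil markers summed to between 88530 and 92730 CPM, counts scaled to the library total. The sum was lowest in exRNaseA replicate 2. In CPM scaled further by edgeR's TMM factors, 9 of the 12 were lower in both exRNaseA libraries than in both mock libraries. On that scale 1 was higher in both, and 18.0% of all tested genes were lower in both. Scaled to the library total alone, some of these 9 overlapped. Erythroid markers summed to between 1466 and 1527 CPM, B cell markers to between 1831 and 1858, monocyte and macrophage markers to between 512.2 and 531.2, eosinophil and basophil markers to between 238.0 and 254.4, stem cell markers to between 52.8 and 61.9, and T and NK cell markers to between 27.7 and 29.1. No marker in any list passed edgeR's test between the groups, and the part of other cells in the values below was not tested.

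The 22 tRNA genes, of 59 to 75 bases, were all listed at 0 expected counts and 0 TPM in all 4 libraries. TPM is a level, scaled to one fixed sum in every library, per base of effective length, the number of start positions that a sequenced fragment could have in a transcript. RSEM gave all 22 tRNAs an effective length of 0, so these files hold no measurement of the mitochondrial tRNAs. The 15 other genes were all tested between the groups.

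Mitochondrial genes took a small share of the poly(A) reads, and the group means of that share lay within the spread of the libraries. The 37 genes held 1.61% and 1.56% of the expected counts in mock replicates 1 and 2, and 1.52% and 1.66% in exRNaseA replicates 1 and 2. Both mock libraries lay between the 2 exRNaseA libraries. The mean share was 1.59% ± 0.039 (SD, n = 2) in mock and 1.59% ± 0.0954 (SD, n = 2) in exRNaseA, and an exact two-sided permutation test gave p = 1.0. With 2 libraries against 2 that test cannot go below 0.333. On the TPM scale the 37 genes held between 3.68% and 3.95% of the total. Together with 6 copies of mitochondrial DNA outside the organelle's genome, which divide reads with them, the shares were 2.10% to 2.27% of expected counts and 5.59% to 5.97% of TPM, with overlapping groups.

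Within that share the mRNAs held 1.45% and 1.39% of expected counts in mock and 1.37% and 1.5% in exRNaseA, with overlapping groups. The rRNAs held 0.166% and 0.168% in mock and 0.156% and 0.157% in exRNaseA, so both treated libraries lay below both mock libraries. The rRNA difference was -0.0106 percentage points, at the lowest p of the exact two-sided permutation test, 0.333. Whether the rRNA change differed from the mRNA change was not tested.

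mt-Rnr1 (ENSMUSG00000064337.1; chromosome MT, 70 to 1024) encodes the 12S rRNA of the small mitochondrial ribosomal subunit. Its level, in CPM scaled by edgeR's TMM factors, was 420.4 and 420.8 in mock and 374.4 and 403.8 in exRNaseA. The groups did not overlap, and exRNaseA replicate 1 was the lowest. Its log2 change was -0.11 (SE 0.0308), with an adjusted p of 0.419 in edgeR's quasi-likelihood test, adjusted by Benjamini and Hochberg's method over all genes. Without exRNaseA replicate 2 the change of mt-Rnr1 was -0.17, and without exRNaseA replicate 1 it was -0.06. Leaving out 1 library leaves a group without a measured spread, so for named genes only the log2 changes of such fits are given.

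mt-Rnr2 (ENSMUSG00000064339.1; chromosome MT, 1094 to 2675) encodes the 16S rRNA of the large subunit. Its level was 1254 and 1275 CPM in mock and 1178 and 1161 CPM in exRNaseA. Both treated libraries lay below both mock libraries by more than the libraries of a group differed. The log2 change was -0.11 (SE 0.0216, 95% interval -0.16 to -0.07), and edgeR's adjusted p of 0.0539 was just above the threshold of 0.05. DESeq2 gave an adjusted p of 0.00325, so the call of mt-Rnr2 depends on the test. With 1 library left out its log2 change stayed between -0.12 and -0.10. The libraries were made by poly(A) selection, so the values need not describe the ribosome pool. Which part of the sequenced rRNA molecules carried a tail was not tested.

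None of the 15 tested mitochondrial genes passed edgeR's test at an adjusted p of 0.05, where 0.0917% of all 14184 tested genes did in either direction. At an unadjusted p of 0.05 edgeR gave 3 of the 15 (mt-Rnr2, mt-Rnr1 and mt-Co3), beside 6.35% of all tested genes. DESeq2 called 1 of the 15, mt-Rnr2, beside 0.0366% of the genes it tested, and limma on log2 TPM called 0. Of all tested genes, 18.0% were lower in both exRNaseA libraries than in both mock libraries and 17.7% were higher in both. Among the mitochondrial genes 3 of 15 were lower without overlap (mt-Rnr1, mt-Rnr2 and mt-Nd4l), which is close to that background, 0 were higher, and 12 overlapped. The log2 changes were below 0 for 8 genes and above 0 for 7, with a median of -0.017, while the median over all tested genes was 0.0.

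**Figure D1:**
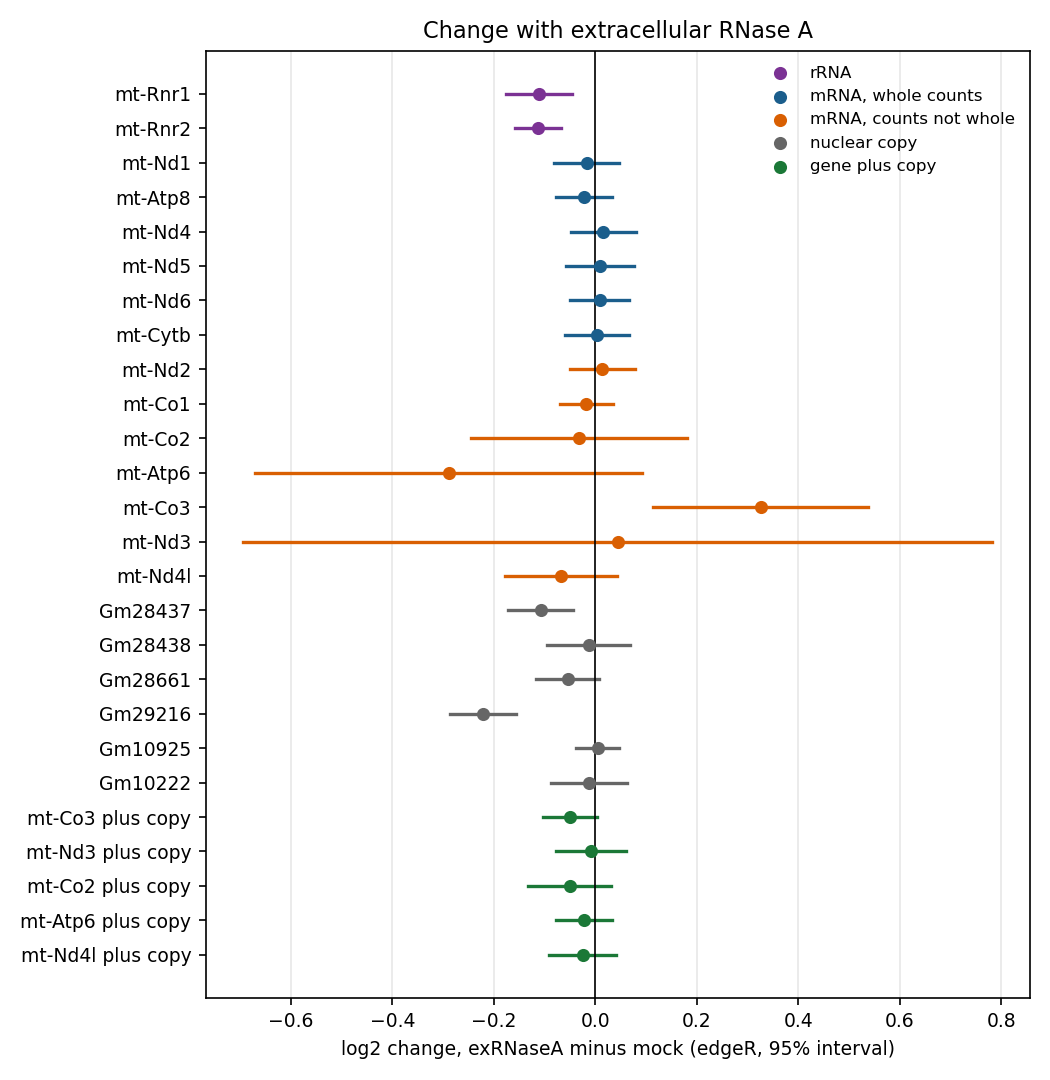
Log2 change, exRNaseA minus mock (points), with its 95% interval from edgeR (lines), for the 2 rRNAs, the 13 mRNAs, 6 copies of mitochondrial DNA outside the organelle's genome and the 5 sums of a gene with its copy. The rRNAs lie at -0.11, the 6 mRNAs with whole counts lie between -0.02 and 0.02, and the wide intervals belong to mt-Nd3, mt-Atp6, mt-Co2 and mt-Co3.

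The 6 mRNAs whose expected counts were whole numbers in all 4 libraries (within 0.005) are described first. They were mt-Nd1, mt-Nd4, mt-Nd5, mt-Nd6, mt-Atp8 and mt-Cytb. Whole counts show no split of reads with another gene, but do not show that each read matched 1 gene only. The log2 changes of these 6 mRNAs lay between -0.02 and 0.02, with standard errors of at most 0.0322. With 1 library left out they ran from -0.08 (mt-Nd1 without exRNaseA replicate 2) to 0.08 (mt-Nd4 without exRNaseA replicate 1). Including the rRNAs, 8 of the 15 genes had whole counts, and within each of these 8 the highest library exceeded the lowest by 1.03 to 1.12 times. Over all tested genes 69.2% had whole counts.

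Complex I, NADH dehydrogenase, takes electrons from NADH, and 7 of its subunits are mitochondrially encoded. mt-Nd1 (2751 to 3707) stood at 1262 and 1216 CPM in mock and 1172 and 1276 CPM in exRNaseA. mt-Nd4 (10167 to 11544) stood at 1728 and 1659 CPM in mock and 1637 and 1787 CPM in exRNaseA. mt-Nd5 (11742 to 13565) stood at 1242 and 1187 CPM in mock and 1166 and 1279 CPM in exRNaseA. In each of these 3 mRNAs exRNaseA replicate 1 was the lowest library and exRNaseA replicate 2 the highest, with both mock libraries between them. Their log2 changes were -0.02 (SE 0.0303), 0.02 (SE 0.0304) and 0.01 (SE 0.0322).

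mt-Nd2 (3914 to 4951), another core subunit, followed the same order, at 794.8 and 784.3 CPM in mock and 762.3 and 831.7 CPM in exRNaseA. Its log2 change was 0.01 (SE 0.0306). mt-Nd6 (13552 to 14070) is the only mRNA read from the opposite strand of the genome. It stood at 324.0 and 314.6 CPM in mock and 318.0 and 324.6 CPM in exRNaseA, with a log2 change of 0.01 (SE 0.0277). Its gene overlaps the end of mt-Nd5, and the ratio of mt-Nd5 to mt-Nd6 TPM lay between 0.725 and 0.786. As no strand setting is given, reads of mt-Nd6 cannot be told apart from those of RNA antisense to it.

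mt-Nd4l (9877 to 10173) shares its transcript with mt-Nd4, which overlaps its end. It stood at 47.1 and 45.3 CPM in mock and 43.8 and 44.4 CPM in exRNaseA, so both treated libraries were lower. It had a log2 change of -0.07 (SE 0.0524), and the edgeR adjusted p was 0.90. The ratio of mt-Nd4 to mt-Nd4l TPM was 3.42 and 3.41 in mock and 3.46 and 3.80 in exRNaseA.

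mt-Nd3 (9459 to 9806) varied most between libraries. Its level was 18.5 and 3.97 CPM in mock and 14.6 and 9.26 CPM in exRNaseA. The 2 mock libraries were the highest and the lowest of the 4, which differed by 4.65 times. The log2 change of 0.04 had a standard error of 0.352. Its direction rested on single libraries: it was 1.58 without mock replicate 1, -0.64 without mock replicate 2 and -0.31 without exRNaseA replicate 1.

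mt-Cytb (14145 to 15288), cytochrome b, is the one mitochondrially encoded subunit of complex III. It stood at 1770 and 1710 CPM in mock and 1668 and 1820 CPM in exRNaseA. The mock libraries again lay between the treated ones, and the log2 change was 0.0033 (SE 0.0298). Its TPM relative to mt-Nd1 ranged from 1.126 to 1.145 over the 4 libraries.

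Complex IV, cytochrome c oxidase, passes electrons to oxygen. mt-Co1 (5328 to 6872), its catalytic subunit, stood at 6017 and 5799 CPM in mock and 5633 and 6035 CPM in exRNaseA. It held the most expected counts of any mitochondrial gene, and its log2 change was -0.02 (SE 0.0249). mt-Co2 (7013 to 7696), which takes up electrons from cytochrome c, stood at 472.6 and 471.2 CPM in mock and 365.2 and 555.4 CPM in exRNaseA. The mock libraries of mt-Co2 were nearly equal, while the exRNaseA libraries were the lowest and the highest. Its log2 change was -0.03 (SE 0.102).

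mt-Co3 (8607 to 9390), the third core subunit, stood at 251.9 and 167.7 CPM in mock and 277.0 and 251.6 CPM in exRNaseA. Mock replicate 2 was well below the other 3 libraries, and mock replicate 1 lay between the treated ones. Its log2 change was 0.33 (SE 0.101), with an edgeR adjusted p of 0.581. That was the lowest adjusted p among the 13 mRNAs. Without mock replicate 1 the change of mt-Co3 was 0.66, and without mock replicate 2 it was 0.07.

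ATP synthase has a pair of mitochondrially encoded subunits whose reading frames overlap. mt-Atp8 (7766 to 7969) stood at 423.8 and 412.1 CPM in mock and 407.3 and 416.0 CPM in exRNaseA, a log2 change of -0.02 (SE 0.0264). mt-Atp6 (7927 to 8607), part of the proton channel, stood at 242.6 and 237.2 CPM in mock and 121.2 and 268.7 CPM in exRNaseA. A single library, exRNaseA replicate 1, lay below the rest. The log2 change was -0.29 (SE 0.182), and the edgeR adjusted p was 0.857. Without exRNaseA replicate 1 the log2 change of mt-Atp6 was 0.16, and that of mt-Co2 was 0.24. Without exRNaseA replicate 2 they were -0.985 and -0.37.

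The 4 mRNAs that varied most between replicate libraries were ones whose counts were not whole. Each was set beside a gene outside the mitochondrial genome with nearly the same annotated length (within 3 bases) or, for Gm10925, with mt-Atp6 as a RefSeq synonym. RefSeq lists Gm10925 and Gm10222 as pseudogenes at chr1:24613971-24614651 and chr1:24612404-24612700 (GRCm38.p6). The pairs were mt-Co3 with Gm28437, mt-Nd3 with Gm28438, mt-Co2 with Gm28661, mt-Atp6 with Gm10925 and mt-Nd4l with Gm10222.

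The expected counts of mt-Co3 were 5929.63 and 3462.53 in mock and 5750.03 and 5788.77 in exRNaseA, and those of Gm28437 were 37567.37, 34260.47, 29988.97 and 36218.23 in the same order. Their sums were whole numbers in all 4 libraries, 43497, 37723, 35739 and 42007. The fractions of a read missing from mt-Co3 were thus in Gm28437. The sums of mt-Nd3, mt-Atp6 and mt-Nd4l with their copies were also whole in all 4 libraries (within 0.02). The sum of mt-Co2 with Gm28661 became whole in all 4 when Gm13341, a copy with only 2.06 to 4.13 expected counts, was added. A further copy, Gm29216, matched no gene by length, and its sum with mt-Co1 was whole in all 4 libraries. These last 2 groupings were found after the values were seen.

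Each of the 5 paired copies had a higher mean TPM than its mitochondrial gene. RSEM gave Gm28438 between 87.5% and 97.2% of the summed CPM of the pair with mt-Nd3, Gm10925 between 89.4% and 94.9% of the pair with mt-Atp6, and Gm28437 between 83.9% and 90.8% of the pair with mt-Co3. Gm28661 held between 76.2% and 82.1% beside mt-Co2, and Gm10222 between 76.7% and 77.9% beside mt-Nd4l. The levels printed for these 5 mitochondrial mRNAs are therefore the smaller portion of each divided sum. Which of the reads came from the organelle cannot be told apart with these files.

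The sums varied less between libraries than the genes did. As the copies hold most of each sum, this evenness is largely that of the copies, whose highest library was 1.02 (Gm10925) to 1.15 (Gm28437) times the lowest. Gm10925 and Gm28661 (1.11) were more even alone than in their sums, and Gm28437, Gm28438 (1.08) and Gm10222 (1.07) were less even. mt-Nd3 with its copy stood at 148.1 and 142.4 CPM in mock and 143.3 and 145.8 CPM in exRNaseA, so the highest library was 1.04 times the lowest, against 4.65 times for the gene alone. mt-Atp6 with its copy stood at 2507 and 2450 CPM in mock and 2355 and 2526 CPM in exRNaseA, 1.07 times against 2.22 times. For mt-Co3 the ratio of the highest to the lowest library was 1.07 for the sum and 1.65 for the gene, and for mt-Co2 it was 1.14 and 1.52. mt-Nd4l was already even, at 1.06 and 1.08.

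When the sums took the place of the genes in the edgeR fit, their log2 changes lay between -0.05 and -0.01, with standard errors of at most 0.0393. None was called, and the lowest adjusted p was 0.773. The log2 change of mt-Co3 went from 0.33 to -0.05 for its sum, and that of mt-Atp6 from -0.29 to -0.02. The part of read division in the changes of the single genes was not tested beyond these sums.

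**Figure D2:**
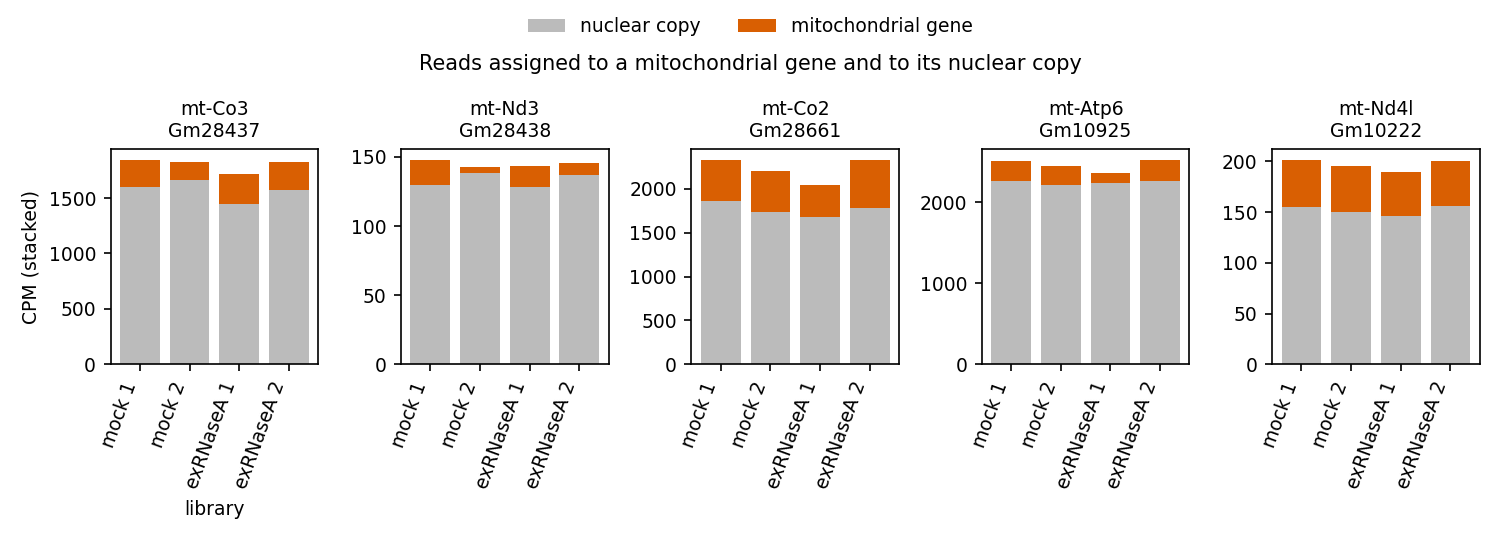
TMM-scaled CPM of 5 mitochondrial mRNAs (orange) stacked on their copies (grey) in the 2 mock and 2 exRNaseA libraries, each panel with its own linear axis from 0. The height of the stack varies between 1.04 and 1.14 times over the libraries of a panel, while the orange portion of mt-Nd3 varies 4.65 times.

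Gm29216 was the only copy that was called. It stood at 201.8 and 209.7 CPM in mock and 177.0 and 175.7 CPM in exRNaseA, below both mock libraries in both treated ones. The log2 change was -0.22 (SE 0.0312), with an edgeR adjusted p of 0.00189. Without mock replicate 2 the log2 change was -0.195. The call depends on the test, as limma on log2 TPM gave an adjusted p of 0.648. Gm29216 held between 2.83% and 3.49% of its sum with mt-Co1, and that sum was 6219 and 6009 CPM in mock and 5811 and 6211 CPM in exRNaseA, with overlapping groups. Of the other copies Gm28437 had a log2 change of -0.11 (edgeR adjusted p 0.419), Gm28661 of -0.05, Gm10925 of 0.0042, and Gm28438 and Gm10222 of -0.01 each.

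Across genes, levels per effective length spanned a wide range, given here as the mean TPM ± SD over the 4 libraries. mt-Atp8 came first, at 15760 ± 188.5 TPM. Its effective length was between 37.2 and 38.0 of 204 bases, and per annotated length mt-Co1 came first and mt-Atp8 second, so the top place depends on the length used. mt-Co1 stood at 6195 ± 231.2 TPM, above mt-Cytb (2616), mt-Nd1 (2304) and mt-Nd4 (2051), and the libraries of these neighbours did not overlap.

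mt-Nd6 (1409 ± 32.2 TPM), mt-Co2 (1360 ± 234.5 TPM) and mt-Nd2 (1341 ± 61.6 TPM) had overlapping ranges over the libraries. Within each library mt-Nd6 stood above mt-Nd2, while the place of mt-Co2 varied. The range of the rRNA mt-Rnr2, at 1249 TPM, overlapped that of mt-Nd2, but mt-Rnr2 was below mt-Nd2 within each library. It was above mt-Nd5 at 1065. Per annotated length mt-Rnr2 ranked 6 and mt-Nd6 ranked 10, so these places also depend on the length used. Whether RNA antisense to mt-Nd6 adds to its level was not tested. mt-Rnr1 (758.9 TPM), mt-Atp6 (637.8 ± 193), mt-Nd4l (582.6) and mt-Co3 (574.3 ± 119) overlapped one after the other. mt-Nd3 was last, at 105.2 ± 57 TPM. The places of mt-Co2, mt-Atp6, mt-Nd4l, mt-Co3 and mt-Nd3 hold only for the portion of reads that RSEM left to them.

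The ratio of mt-Rnr2 to mt-Rnr1 TPM was 1.63 and 1.66 in mock and 1.72 and 1.58 in exRNaseA, with the mock values between the treated ones. The ratio of mt-Co1 to mt-Rnr2 TPM was 4.93 and 4.68 in mock and 4.92 and 5.34 in exRNaseA. That of mt-Co1 to mt-Co2, whose counts are divided with Gm28661, ran more widely, from 3.94 to 5.57.

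**Figure D3:**
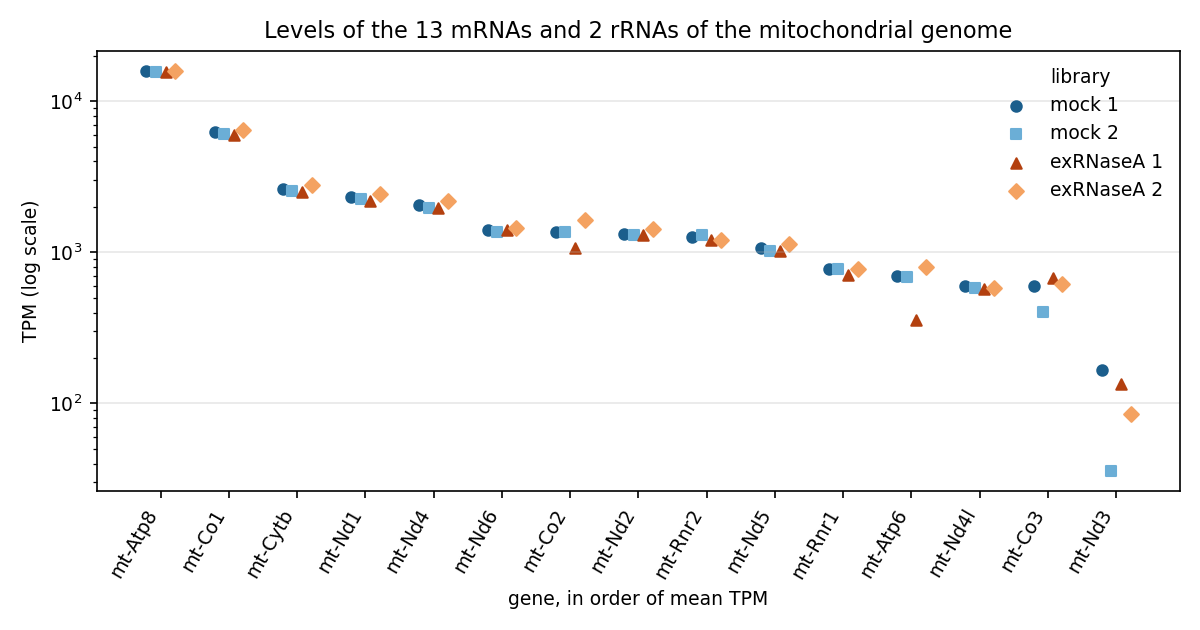
TPM of the 13 mRNAs and 2 rRNAs in each of the 2 mock and 2 exRNaseA libraries, on a log axis, ordered by mean TPM. The libraries of most genes lie on top of each other, and the scatter of mt-Co2, mt-Atp6, mt-Co3 and mt-Nd3 is visible, with mt-Nd3 between 35.7 and 165.6 TPM.

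Mitochondrial ribosomes and respiratory complexes are built jointly with nuclear genes, and 8 lists of such genes were set beside the mitochondrial ones. Of 228 tested genes edgeR called 1 lower and 0 higher, where 0.0705% of all tested genes were called lower and 0.0212% higher. Without overlap, 16.2% were lower and 13.6% higher, close to the 18.0% and 17.7% of all genes. The log2 change was below 0 for 111 of the 228. The lists' medians lay between -0.04 and 0.01.

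The 37 nuclear complex I genes had 0 calls and a median of 0.01. Among their highest by CPM were Ndufs1 (70.3, 71.2, 70.8 and 69.6 CPM in mock 1, mock 2, exRNaseA 1 and exRNaseA 2) and Ndufv3, with log2 changes of -0.01 and -0.02. Ndufb10, an accessory subunit, had the smallest p of the list, with a log2 change of -0.17 and an edgeR adjusted p of 0.753. Among the 4 complex II genes, none of which is mitochondrially encoded in mammals, Sdha and Sdhb had changes of 0.0011 and 0.06. Sdhd, a membrane anchor of that complex, stood at 58.6 and 59.1 CPM in mock and 52.7 and 50.2 CPM in exRNaseA. Its log2 change was -0.20 (SE 0.048), and its edgeR adjusted p of 0.288 fell to 0.0276 when genes with low counts were kept in.

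For complex III (9 genes tested) the median was -0.04, with Uqcrc2 at -0.05, Uqcrh at -0.04 and Uqcrc1, a core protein, at 0.10 (edgeR adjusted p 0.795). For complex IV (12 tested) the median was -0.01, no gene was free of overlap, and Cox4i1, Cox6b1, Cox6c and Cox6a1 lay between -0.07 and -0.0009. The nuclear genes of ATP synthase (16 tested) had a median of -0.01. Atp5b, the catalytic beta subunit, stood at 318.9 and 318.9 CPM in mock and 322.9 and 312.4 CPM in exRNaseA, and Atp5a1, Atp5f1 and Atp5e had changes of 0.01, -0.03 and 0.17. None of these genes was called.

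The proteins of the mitochondrial ribosome, the partners of the 2 rRNAs, gave no call among 82 tested genes. Of these, 13 were lower and 14 higher without overlap, with a median of 0.01. Mrpl33, Mrpl24 and Dap3 had changes of -0.08, 0.06 and 0.04. Mrpl23 had the smallest p, with 6.46 and 6.20 CPM in mock, 4.72 and 4.74 CPM in exRNaseA and an edgeR adjusted p of 0.628. Genes for transcription of the mitochondrial genome and handling of its RNA also gave no call among 46. Polg, the DNA polymerase, changed by 0.02, Angel2 by -0.10 and Grsf1, an RNA-binding protein of mitochondrial RNA granules, by -0.01. Trmt10c, a subunit of mitochondrial RNase P, had the smallest p, with a change of -0.17 and an edgeR adjusted p of 0.708.

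The single call was Lars2, the mitochondrial leucyl-tRNA synthetase, among 22 synthetase genes tested. It stood at 1677 and 2153 CPM in mock and 80.0 and 77.0 CPM in exRNaseA, a log2 change of -4.61 (SE 0.0806, edgeR adjusted p 3.929e-18). The mouse Lars2 locus is known to carry a stretch of ribosomal RNA sequence, and whether these reads come from Lars2 mRNA was not tested. The next 2 synthetases by level, Gars and Kars, which serve the cytosol too, had changes of 0.01 and 0.0025.

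Short mitochondrial sequences also appeared in the small RNA table. It lists 18385 unique sequences, and 3226 of them carry a position in the mouse genome (mm10). Of these 19 were on the mitochondrial chromosome, all on the reverse strand, where 50.1% of the 3207 others were on the reverse strand. The 19 fell at 6 sites, 1 each inside mt-Nd1, mt-Nd4, mt-Nd5, mt-Nd6 and mt-Cytb and 1 beyond the last gene. They share sites and are not 19 independent sequences.

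The 2 sites with most sequences are shown because their sequences end at the same 3′ base and differ in how far they reach towards the 5′ end. The capitals mark the last 16 bases, which all sequences of a site share. The first 3 lie antisense to mt-Nd5 and the last 3 are in the sense of mt-Nd6.
mt-Nd5 site, chrM:13161-13196, reverse strand, longest: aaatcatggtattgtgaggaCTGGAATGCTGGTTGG
mt-Nd5 site, chrM:13161-13181, reverse strand, highest: gaggaCTGGAATGCTGGTTGG
mt-Nd5 site, chrM:13161-13177, reverse strand, shortest: aCTGGAATGCTGGTTGG
mt-Nd6 site, chrM:13668-13690, reverse strand, longest: ggttgatGATGTTGGAGTTATGT
mt-Nd6 site, chrM:13668-13686, reverse strand: gatGATGTTGGAGTTATGT
mt-Nd6 site, chrM:13668-13683, reverse strand, shortest: GATGTTGGAGTTATGT
The mt-Nd5 site held 8 sequences of 17 to 36 bases and the mt-Nd6 site 6 of 16 to 23 bases. At mt-Nd1 a pair of sequences of 21 and 23 bases did the same, shown here by the longer.
mt-Nd1 site, chrM:3585-3607, reverse strand: ataagttGATCGTAACGGAAGCG

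The other 3 sites had 1 sequence each, printed because each was found in few libraries. The last lies past the end of the proline tRNA gene at base 15422, in the stretch without genes that holds the control region.
mt-Nd4 site, chrM:11164-11187, reverse strand: tacggctgtggatccgttcgtagt
mt-Cytb site, chrM:14802-14819, reverse strand: tgtatagtaggggtgaaa
no gene, chrM:15978-15999, reverse strand: cttcaccgtaggtgcgtctaga
In all, 12 sequences were antisense to an mRNA, 6 were in the sense of one and 1 was in no gene. mt-Nd6 is the one mRNA encoded on that strand. Sequences this short can also match copies of mitochondrial DNA in the nuclear genome, which the table does not show.

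These sequences were rare. The highest single value was 22.0 RPM (reads scaled to the library total), and none reached 100 RPM in any library. The 19 sequences summed to 3.47 RPM (13 reads) in HOXB8 input, 1.58 RPM (6 reads) in differentiated HOXB8 input and 1.61 RPM (5 reads) in neutrophil input. In the captures the sums were higher: 19.4 RPM (124 reads) after biotin and 16.7 RPM (92 reads) after WGA in HOXB8 cells, 61.5 RPM (495 reads) and 55.2 RPM (471 reads) in differentiated cells, and 136.1 RPM (1350 reads) after WGA in neutrophils. Every capture exceeded the input of its own cells. Each of the 19 sequences was highest in a captured library, with 43 or more reads there, and had at most 3 reads in any input. The rule by which sequences entered the table is not given, and its part in the direction of these sums was not tested.

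Without replicates these ratios compare libraries, and their intervals (exact, 95%) cover counting error only. WGA capture over input was 4.80 (2.67 to 9.36) in HOXB8 cells, 35.0 (15.97 to 95.9) in differentiated cells and 84.6 (36.2 to 261.1) in neutrophils. Biotin capture over input was 5.60 (3.16 to 10.8) in HOXB8 cells and 39.1 (17.8 to 106.9) in differentiated cells. The other sequences with a genome position had ratios of 11.0, 13.5 and 0.754 after WGA in the same 3 kinds of cell, and of 14.8 and 10.5 after biotin. By value, the mitochondrial ratio was below that of the other genome-mapped sequences in HOXB8 cells and above it in differentiated cells and neutrophils. Each mitochondrial sequence was highest in a captured library and had few reads in the inputs. The direction of these ratios therefore cannot be told apart from how the sequences entered the table, and no order of the cells is drawn from them. Only the inputs were cut to under 300 nt on a gel, and the table holds between 39.3% of a library's reads (HOXB8 input) and 96.7%. The part of the size cut and of the table's selection in these ratios was not tested.

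The sites were not the same from library to library. In HOXB8 cells biotin over input was 0.685 (0.197 to 2.47) at the mt-Nd5 site and 13.5 (5.10 to 50.6) at the mt-Nd6 site. WGA over input was 5.54 and 7.29 at these sites. The mt-Nd4 site had 3 reads in HOXB8 input and 0 in both captures, and the mt-Nd1 site 0 in input and 25 after biotin. In neutrophil WGA the mt-Nd5 site gave 897 of the 1350 reads, the mt-Nd6 site 265 and the mt-Nd1 site all the rest. In differentiated WGA the mt-Nd4 site gave 168 reads and the mt-Cytb site 102, and both gave 0 in neutrophil WGA, where a count of 0 allows up to 0.302 RPM (3 reads). The sequence in no gene had 118 reads in differentiated biotin and 0 in the other 8 libraries. No sequence had a read in all 9 libraries. The most widely found, the 16-base mt-Nd6 sequence GATGTTGGAGTTATGT, had reads in 7, and 2 sequences had reads in 1 library only. HOXB8 WGA held reads of 2 of the 19 sequences, and neutrophil WGA of 14.

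PNGase F digestion of the biotin capture left the mitochondrial sum at 77.8 RPM (502 reads), beside 61.5 RPM without it, a ratio of 1.27 (1.12 to 1.44, counting error only). The sites went in opposite directions. The mt-Nd6 site stood at 54.7 RPM with PNGase F and 22.1 without, a ratio of 2.47 (2.06 to 2.98). The mt-Nd5 site stood at 14.1 RPM and 20.3 RPM, a ratio of 0.697 (0.533 to 0.906). The mt-Nd1 site stood at 8.99 RPM (58 reads) and 0.87 RPM (7 reads), a ratio of 10.3 (4.71 to 26.9). The mt-Nd4 site had 0 reads with PNGase F and 29 without, and the sequence in no gene 0 and 118. The other genome-mapped sequences had a ratio of 0.999.

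**Figure D4:**
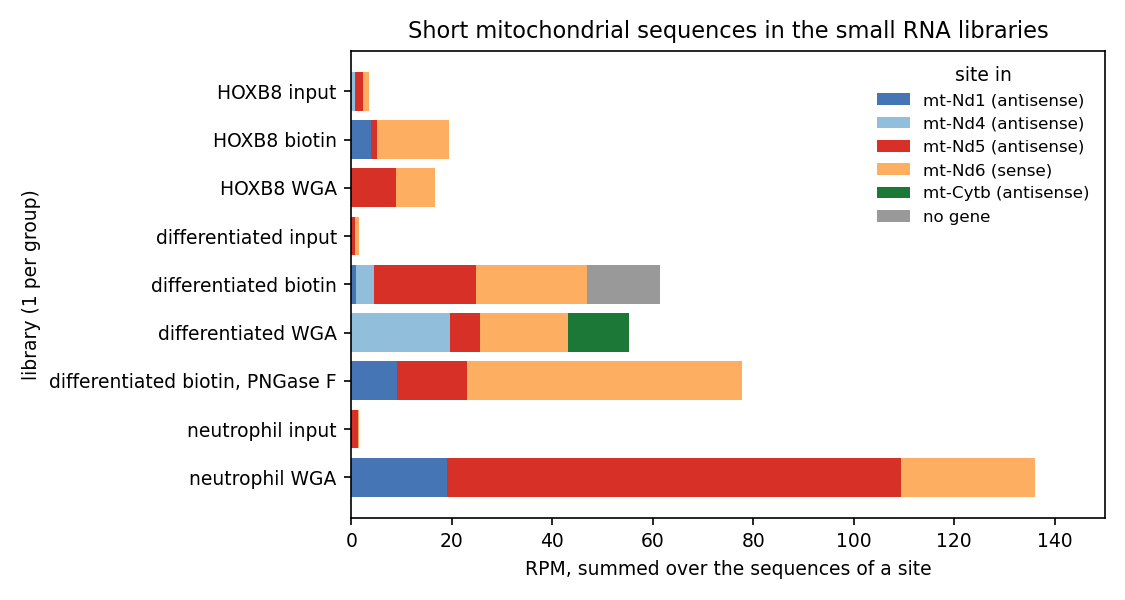
RPM of the short mitochondrial sequences, summed by site, in the 9 small RNA libraries, 1 library a group. The inputs hold 1.58 to 3.47 RPM, and neutrophil WGA, at 136.1 RPM, is mostly the mt-Nd5 site.

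The tRNA class of the table (701 sequences) and its rRNA class (9798 sequences) are listed by database identifiers that the files do not pair with gene names, so fragments of mitochondrial tRNAs and rRNAs in those classes were not assigned here.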

How the data were processed

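Per the submitters' processing notes, the authors used STAR 2.4.2a, RSEM 1.3.3 and the mm10 build to make the deposited expected counts. Each deposited gene table also holds TPM and FPKM columns, per the file headers, and FPKM gave no result here. Neither strand setting nor annotation release is given in the sources used here, so reads of a gene and of RNA antisense to it cannot be told apart. The deposited small RNA values are RPM, the reads of a unique sequence scaled to the reads of its library. Whole reads were recovered from them, taking a library's smallest value as 1 read (largest distance 0.000814 for the mitochondrial sequences). The sources used here do not give the aligner or the selection of that table. By that step the depth of the 9 small RNA libraries ran from 3110323 to 9922702 reads.

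Symbols were matched to 55450 of 55536 genes. Expected counts were rounded, edgeR 4.0.16 kept 14184 genes by filterByExpr, TMM scaled the libraries, and the quasi-likelihood test was adjusted over all genes (Benjamini-Hochberg, 0.05). DESeq2 1.42.0 and limma 3.58.1 were alternatives. Only the edgeR fit was run on simulated counts with known changes, and its outcome is not reported here. Shares were compared by an exact permutation test over libraries.

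The text names all 15 tested mitochondrial genes, the tested copies, of each list the 3 highest by CPM, the smallest p and every call, and, of the small RNA, the sites that hold the 10 highest sequences. Among the markers it gives the lists only. Some of what the rule names is not reported here. The members, lists and rules were chosen with earlier results of these data known.

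Alternatives covered the test, scaling, filter, a pseudocount of 1 or 0.1 on log2 TPM, a block for the replicate number, leaving out each library, and other lengths and members. The sums with copies, the annotated lengths and leaving out mt-Atp8 were chosen after seeing the data. The deviations of mock replicate 1 and exRNaseA replicate 1 from their group means had a correlation of 0.047 over 7828 genes. That single value cannot exclude that replicate numbers pair the libraries.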

Additional observations from a re-analysis of the deposited data

How the results depend on the processing

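Counts of called genes moved most. Over all genes edgeR called 13, against 149 with no filter, 7 with a filter of 10 CPM, 7 and 8 with limma on log2 TPM (pseudocount 1 and 0.1), 55 with the replicate number as a block, and 9 to 74 when 1 library was left out. Of the mitochondrial genes 0 were called, against 1 with DESeq2 (mt-Rnr2), 4 with no filter and 4 with the replicate block (mt-Rnr1, mt-Rnr2, mt-Atp6 and mt-Co3 each time), and 0 to 4 with 1 library left out. The fits with 1 library left out leave a group without a measured spread. The ranges of their counts show only how far the number of calls moved, and no gene is taken as called from them. Whether libraries of the same replicate number belong together is not known, so whether the block applies cannot be told. With 1 library left out the log2 changes ran from -0.37 to 0.236 for mt-Co2 (-0.03 with all) and from -0.985 to 0.164 for mt-Atp6 (-0.29 with all), turning without exRNaseA replicate 1, from -0.639 to 1.58 for mt-Nd3 (0.04 with all) and from 0.068 to 0.656 for mt-Co3 (0.33 with all), and the cause was not tested. The difference in the share of counts stayed within the spread of the libraries, between -0.0659 and 0.0690 percentage points with 1 library left out.

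Per annotated length mt-Co1 held 26.02% of the summed level, and 27.9% of TPM without mt-Atp8, against 16.3%. As shares of the table, the log2 ratios of HOXB8 WGA and biotin to input were 1.06 and 1.26, against 2.26 and 2.49. For sequences of 20 or more bases they were 2.96 and 1.79, which exchanges their order, and that of differentiated WGA was 5.77, against 5.13. For neutrophil WGA the log2 ratio was 7.34 without the highest sequence of each library, against 6.40. The log2 ratio of PNGase F to biotin was 0.04 for sequences of 20 or more bases and 0.58 without the highest sequence, against 0.34. Depth limits the small RNA inputs, which held 5 to 13 mitochondrial reads.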
